A study of Mus musculus with 16 samples.

Results

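Mouse genes that make, cleave or sense the natriuretic peptides were followed through hearts exposed to pressure overload and to the transcriptional kinase inhibitor THZ1. They were picked by symbol for their role in the pathway, and they were 7 of the 22372 genes in the deposited table. Each symbol matched 1 gene: the peptide genes Nppa and Nppb, the protease genes Corin and Furin, and the receptor genes Npr1, Npr2 and Npr3. RNA came from small pieces of heart ventricle of male C57BL/6J mice, which were 10 to 12 weeks old at the start. Transverse aortic constriction (TAC), a suture around the aortic arch that loads the left ventricle, was compared with a sham operation lacking the suture, and each surgery was combined with THZ1 or with vehicle. This gave sham hearts with vehicle (Sham-Veh) or drug (Sham-THZ1) and constricted hearts with vehicle (TAC-Veh) or drug (TAC-THZ1), with 4 libraries in each of the 4 groups. Per the labels, THZ1, which binds CDK7, CDK12 and CDK13 covalently, was injected into the peritoneum at 10 mg/kg, 2 times daily, beginning on postoperative day 1 and ending on day 60. No transgene or Cre was used, so all groups shared a wild-type background and differed only in surgery and injection.

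Natriuretic peptides are hormones that heart muscle cells release when the wall is stretched. Atrial natriuretic peptide, encoded by Nppa, and brain natriuretic peptide, encoded by Nppb, are made as precursors. Corin, a transmembrane protease of cardiomyocytes, and furin, a convertase of the secretory pathway, cut these precursors into active hormones. The products act on the guanylyl cyclase receptor encoded by Npr1, which makes the second messenger cGMP and promotes salt excretion and vessel relaxation. Npr2 encodes the related cyclase that prefers C-type natriuretic peptide, and Npr3 encodes the clearance receptor, which takes peptides out of circulation. In the adult ventricle Nppa and Nppb are low after birth and return with load, for which they are used as markers of heart failure.

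The peptide genes lie next to each other on chromosome 4, and their upstream sequences are shown because factors of heart muscle are known to bind there. On mm9 (NCBIM37), the build of the study, Nppb spans 147359897 to 147361314 and Nppa 147374831 to 147376188. Both are on the plus strand, and their starts are 14934 bases apart. The 250 bases before the RefSeq start of Nppa (GRCm38.p6, chr4:148000472-148000721, plus strand) follow. Capitals mark matches, on either strand, to GATAA, a site of GATA factors, to TCACACC, the half-site of T-box factors, to AAGTG, a site of Nkx2-5, and to TATAAA, the TATA box.

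Nppa: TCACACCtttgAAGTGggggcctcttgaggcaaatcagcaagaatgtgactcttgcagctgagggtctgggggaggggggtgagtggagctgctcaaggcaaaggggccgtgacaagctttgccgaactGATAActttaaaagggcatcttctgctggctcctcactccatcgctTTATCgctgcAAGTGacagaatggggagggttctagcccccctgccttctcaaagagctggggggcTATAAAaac

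For Nppb, the 27 bases that hold its clustered matches are shown (GRCm38.p6, chr4:147985795-147985821, plus strand). They lie 105 to 79 bases before the RefSeq start. GENCODE places the start of the gene 112 bases upstream of the RefSeq one, so the stretch is promoter in one annotation and transcribed in the other. Capitals mark GGAATG, the MCAT element that TEAD factors bind, and GATAA. No 2 matches overlapped in either window.

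Nppb: GGAATGcagctGATAAatcagaGATAA

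Both genes held 2 GATAA matches in the 250-base window, where 4.28% of the 32851 RefSeq promoter windows of that length had 2 or more and 22.6% had at least 1. In Nppa they began 121 and 75 bases before the start, and in Nppb 94 and 83. TCACACC was present in the Nppa window and in 3.33% of all windows, and GGAATG in the Nppb window and in 12.6%. Nppa held AAGTG at 2 positions, and 10.2% of windows held it at 2 or more. TATAAA was found in both windows, beginning 9 bases before the RefSeq start in Nppa and 31 in Nppb, and in 12.4% of all. None of the windows of Corin, Furin, Npr1, Npr2 and Npr3 held GATAA, and the serum response factor's CArG box was in no window of the 7 genes, against 1.47% overall. The more upstream window of Furin held AAGTG 204, 168, 76 and 37 bases before its start and TATAAA at 23. AAGTG and TATAAA were thus not particular to the peptide genes. These matches are letters in a window and not evidence of binding.

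The remaining genes are scattered over the genome on mm9. Corin (ENSMUSG00000005220) spans 72691264 to 72895779 on the minus strand of chromosome 5, and Furin (ENSMUSG00000030530) spans 87533471 to 87550322 on the minus strand of chromosome 7. Npr1 (ENSMUSG00000027931) lies at 90254513 to 90269788 on the minus strand of chromosome 3. Npr2 (ENSMUSG00000028469) lies at 43644807 to 43664116 on the plus strand of chromosome 4, far from the peptide genes, and Npr3 (ENSMUSG00000022206) at 11769651 to 11835429 on the minus strand of chromosome 15. Nppa (ENSMUSG00000041616), Npr1 and Npr2 overlap noncoding transcripts of the opposite strand, by 989, 5513 and 9599 bases. Counting was strand-specific. No gene of the opposite strand overlapped Nppb (ENSMUSG00000029019), Corin, Furin or Npr3, and Corin holds 2 small U6 RNA genes on its own strand.

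Between 21.4 and 35.8 M reads per library were counted in genes, of which 33.2% to 44.7% were mitochondrial. The unit throughout is the normalized count, which is the reads of a gene divided by a size factor of its library. All 7 genes passed the filter on low values, and the fewest reads behind any of their values were 371, for Npr3. Of 5 atrial markers, Bmp10, Sln and Myl7 were at or near 0, with Bmp10 at 0 reads in all but 1 library and Myl7 at no more than 6.44 normalized counts. The other 2, Myl4 and Dkk3, were present in every library, Myl4 at 25.1 to 81.1 and Dkk3 at 47.1 to 1318, highest in TAC-Veh. The summed level of 8 cardiomyocyte markers was 572393 to 840009 normalized counts in TAC-Veh, 972277 to 1231620 in TAC-THZ1, 1137620 to 1228820 in Sham-Veh and 1166060 to 1215500 in Sham-THZ1. One library, TAC-Veh replicate 2, stood below the others of its group at 572393. Myh6 was the largest part of the cardiomyocyte sum, at a mean of 501105 in Sham-Veh and 225634 in TAC-Veh. The sum of 5 fibroblast markers was 36429 to 54828 in TAC-Veh and 22125 to 32519 in TAC-THZ1, against 19307 to 21417 in Sham-Veh. Dcn made up most of the fibroblast sum, at a mean of 14328 in Sham-Veh and 30278 in TAC-Veh.

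In the unloaded ventricle the peptides already led the 7 genes per length of transcript. Nppb had 4411 ± 643 and Nppa 3828 ± 976 normalized counts per kb of exon in Sham-Veh (mean ± SD, n = 4), ranks 174 and 196 among 22359 nuclear genes. Corin followed with 1174 ± 94.9 per kb, then Npr2 with 316 ± 12.9, Furin with 186 ± 22.1, Npr1 with 137 ± 9.67 and Npr3 with 68.0 ± 9.04. Ranges of Nppa and Nppb overlapped in both sham groups and in TAC-THZ1. In the sham groups the order of the 2 genes also differed between libraries, whereas Nppa was above Nppb in all 4 libraries of TAC-Veh and of TAC-THZ1. From Corin down to Npr1 the order was the same in all 16 libraries, with no overlap of neighbours. At the low end Npr1 and Npr3 overlapped in TAC-Veh, where 1 of 4 libraries had more Npr3 than Npr1 per kb. With TAC, Nppa reached 120200 ± 81018 normalized counts per kb, rank 4 among nuclear genes, and Nppb 25163 ± 8552, rank 24. In TAC-THZ1 their ranks were 22 and 54.

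**Figure D1:**
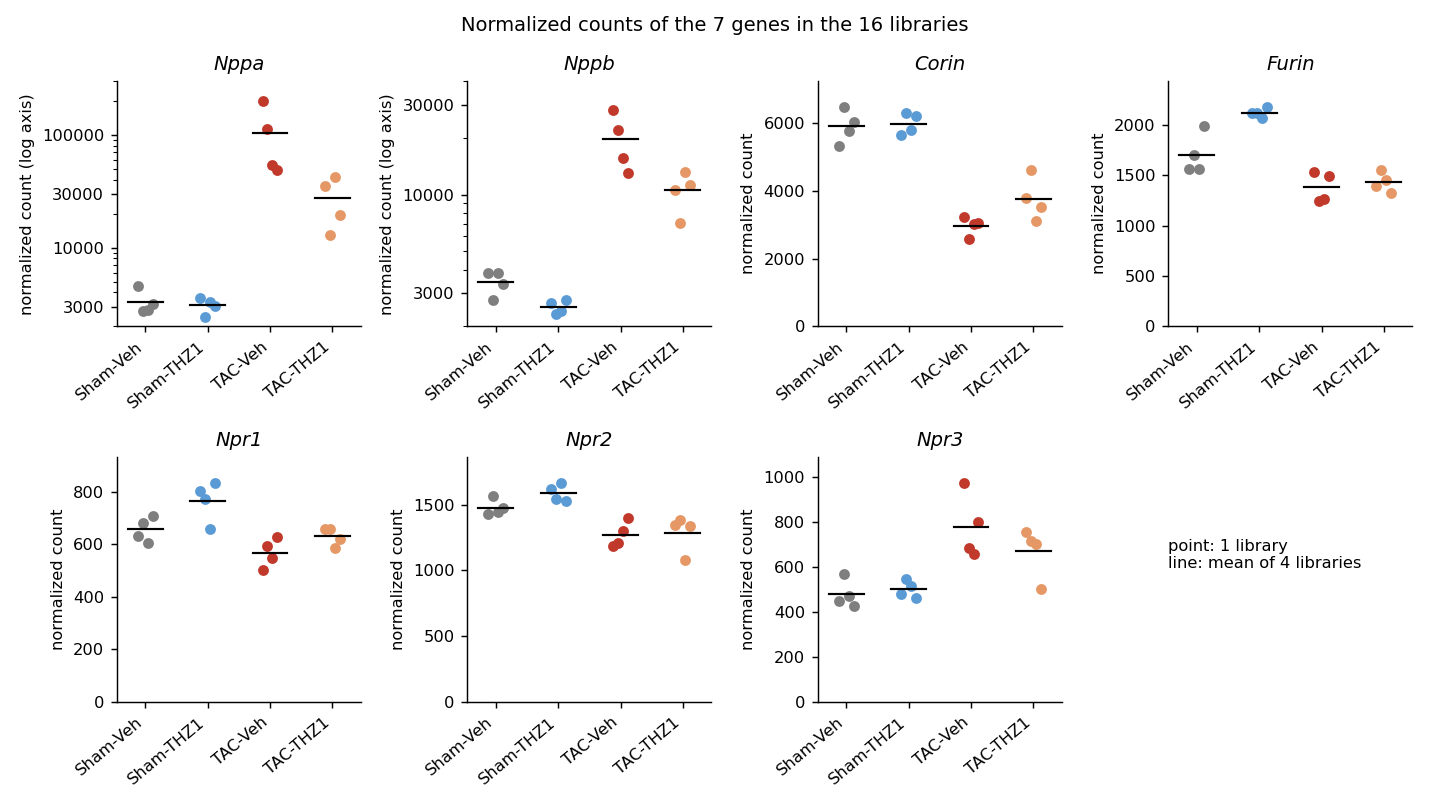
Normalized count of each of the 7 genes (vertical axis, log axis for Nppa and Nppb, linear from 0 for the others) in the 4 groups (horizontal axis); points are libraries and lines are means of 4. For Nppa the 4 TAC-Veh libraries lie between 49208 and 199788 and the 4 TAC-THZ1 libraries between 12865 and 42633, with no overlap; for Corin the TAC groups lie below the sham groups.

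The first comparison asked how the pathway responded to 60 days of pressure overload without drug. The peptide genes and the clearance receptor gene rose, both protease genes and Npr2 fell, and Npr1 did not pass the threshold. With limma and a Benjamini-Hochberg adjusted p under 0.05 over 13331 genes, 6 of 7 were called, 3 higher and 3 lower, where 45.0% of all genes tested were called (21.4% higher and 23.6% lower). Values of the 2 groups did not overlap for 6 of the 7, against 37.3% of all genes. In bulk tissue, fewer cells of a type and less RNA per cell cannot be told apart, which bears on every comparison of a loaded with an unloaded ventricle.

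Nppa held 4544, 2743, 2788 and 3172 normalized counts in the Sham-Veh libraries and 199788, 112703, 54193 and 49208 in the TAC-Veh libraries. The lowest TAC-Veh library was thus above the highest sham library by an order of magnitude, and within TAC-Veh the highest was 4.06 times the lowest. The log2 fold change was 4.76 (SE 0.40, 95% interval 3.93 to 5.60, adjusted p = 3.75e-07), or 27.2-fold, and it ranked 16th in absolute size among all genes tested. As a share of reads in nuclear genes, Nppa went from 0.0192% ± 0.00505 in Sham-Veh to 0.621% ± 0.390 in TAC-Veh, and to 1.13% in the highest library.

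Nppb held 3822, 2775, 3839 and 3344 normalized counts in Sham-Veh and 27977, 21920, 15636 and 13076 in TAC-Veh. The groups were again far apart, and the spread within TAC-Veh was narrower than for Nppa, the highest library being 2.14 times the lowest. Its log2 fold change was 2.46 (SE 0.21, 95% interval 2.03 to 2.90, adjusted p = 3.75e-07), or 5.51-fold. The intervals of the 2 peptide genes did not overlap.

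The proteases moved the other way. Corin held 5329, 6469, 5781 and 6047 normalized counts in Sham-Veh and 3220, 2581, 3028 and 3050 in TAC-Veh, so that each loaded heart had fewer than any sham heart. It fell by 0.99 on the log2 scale (SE 0.10, adjusted p = 2.00e-06), or 1.99-fold. Furin held 1565, 1703, 1556 and 1991 in Sham-Veh and 1528, 1246, 1264 and 1486 in TAC-Veh, groups that were separate but close. It fell by 0.30 (SE 0.08, adjusted p = 0.00857), a smaller change than that of Corin. The ratio of Furin to Corin within a library was 0.289 ± 0.0300 in Sham-Veh and 0.466 ± 0.0324 in TAC-Veh, with no overlap. Under the drug it was 0.354 ± 0.0158 after sham surgery and 0.387 ± 0.0563 after TAC, with overlapping ranges, and Sham-THZ1, from 0.336 to 0.374, lay above Sham-Veh, from 0.263 to 0.329. Over the same libraries the cardiomyocyte marker sum was lower and the fibroblast marker sum higher, as given above, and their part in these differences was not tested.

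Among the receptors, Npr3 held 451, 572, 473 and 426 normalized counts in Sham-Veh and 975, 686, 659.8 and 802 in TAC-Veh. All TAC-Veh libraries were above all sham libraries, and the log2 fold change was 0.69 (SE 0.14, 95% interval 0.40 to 0.98, adjusted p = 6.70e-04). Npr2 held 1426, 1562, 1445 and 1474 in Sham-Veh and 1183, 1209.8, 1302 and 1397 in TAC-Veh. It fell by 0.22 (SE 0.08, adjusted p = 0.0279), but the call was lost without Sham-Veh replicate 2 (adjusted p = 0.0833), Sham-Veh replicate 4 (0.0540), TAC-Veh replicate 1 (0.0706) or TAC-Veh replicate 2 (0.0722), and with quantile normalization (0.0536) or array weights (0.0558). Npr1, the receptor of both cardiac peptides, held 631, 683, 606 and 707 in Sham-Veh and 503, 593, 548 and 627 in TAC-Veh, with 1 TAC-Veh library inside the sham range. Its difference of -0.21 (SE 0.09, adjusted p = 0.0527) was just outside the threshold. It was inside without Sham-Veh replicate 3 (0.0425), Sham-THZ1 replicate 3 (0.0363) or TAC-Veh replicate 4 (0.0217), and with a minimum mean of 50 (0.0495).

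Within single libraries, the balance of clearance to signalling receptor moved with surgery. The ratio of Npr3 to Npr1 normalized counts was 0.734 ± 0.101 in Sham-Veh and 1.39 ± 0.365 in TAC-Veh (mean ± SD, n = 4). Under the drug it was 0.663 ± 0.103 after sham surgery and 1.07 ± 0.176 after TAC. The TAC-Veh libraries ranged from 1.16 to 1.94, above the 0.603 to 0.838 of Sham-Veh. TAC-THZ1 ranged from 0.812 to 1.21, and so overlapped both of these groups. A ratio within a library does not depend on its size factor, and these ratios are given without a test. They are not corrected for exon length, which is 7067 bases for Npr3 and 4783 for Npr1. Per kb of exon, Npr1 was above Npr3 in 3 of the 4 TAC-Veh libraries.

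**Figure D2:**
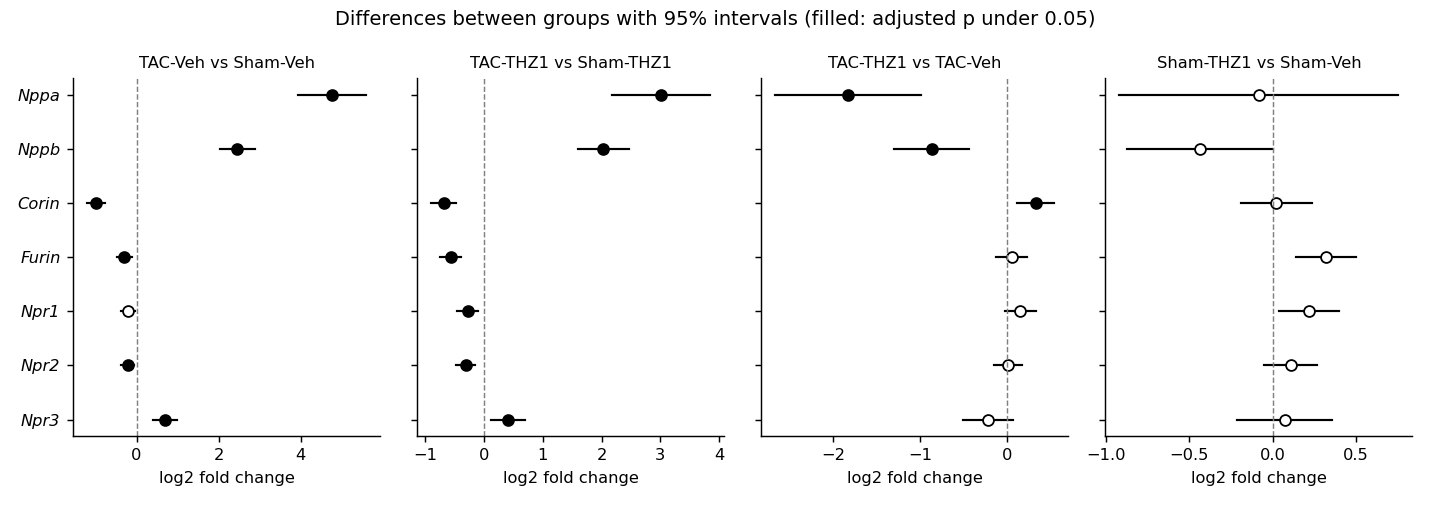
Log2 fold change (horizontal axis, on its own scale in each panel) of the 7 genes (vertical axis) in 4 comparisons, with 95% intervals from limma; filled points have an adjusted p under 0.05. Nppa and Nppb lie at 4.76 and 2.46 with TAC under vehicle, at 3.01 and 2.03 with TAC under THZ1, and at -1.83 and -0.87 for THZ1 in TAC; no point is filled for THZ1 in sham hearts.

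The second comparison asked what THZ1 changed in constricted hearts. Nppa and Nppb fell and Corin rose, while Furin and the 3 receptor genes did not pass the threshold. These were 3 of 7 genes called by limma, against 29.4% of all genes tested (15.1% higher and 14.2% lower). Ranges of TAC-Veh and TAC-THZ1 were separate for Nppa alone of the 7, against 20.0% of all genes. Because these libraries were also the loaded group of the first comparison, opposite directions in the 2 comparisons are not independent.

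Nppa held 35178, 12865, 42633 and 19261 normalized counts in TAC-THZ1, each below the lowest TAC-Veh library at 49208. The 4 libraries also varied widely among themselves, the highest at 3.31 times the lowest. Nppa fell by 1.83 on the log2 scale (SE 0.40, 95% interval -2.67 to -0.997, adjusted p = 0.00297), or 3.57-fold. Nppb held 10630, 7065, 13234 and 11292 in TAC-THZ1, where only replicate 3 exceeded the lowest TAC-Veh library, at 13076. It fell by 0.87 (SE 0.21, 95% interval -1.31 to -0.43, adjusted p = 0.00529), or 1.83-fold. When only the 8 constricted libraries entered the fit, Nppa was still called (adjusted p = 0.0440), and Nppb had an adjusted p of 0.0550.

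Corin held 3787, 4615, 3114 and 3519 normalized counts in TAC-THZ1. Replicate 3 was within the TAC-Veh range and the other 3 were above it, and none reached the lowest sham library. It rose by 0.33 (SE 0.10, adjusted p = 0.0220). This call was not stable: it was lost without TAC-Veh replicate 2 (adjusted p = 0.0793), which had the lowest Corin level and the lowest cardiomyocyte marker sum, and without TAC-THZ1 replicate 2 (0.0806), with array weights (0.0536) and when only the constricted libraries were fitted (0.109). The summed cardiomyocyte markers were also higher in TAC-THZ1 than in TAC-Veh, with no overlap, and 6 of the 8 rose in the same comparison (1 to 7 over the alternatives). Their part in the change of Corin was not tested.

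Furin held 1397, 1549, 1454 and 1318 normalized counts in TAC-THZ1, with a difference from TAC-Veh of 0.05 (95% interval -0.13 to 0.23, adjusted p = 0.675). Npr1 held 657.4, 656.9, 584 and 621 in TAC-THZ1, and the difference was 0.15 (95% interval -0.03 to 0.33, adjusted p = 0.188). For Npr2, at 1343, 1379.97, 1083 and 1336, it was 0.01 (95% interval -0.15 to 0.17, adjusted p = 0.930). For Npr3, at 757, 718, 705 and 505, it was -0.22 (95% interval -0.50 to 0.07, adjusted p = 0.244). Of the 4 intervals that of Npr3 was the widest, and effects of THZ1 inside these intervals were not resolved with 4 hearts a group.

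The ratio of the 2 peptide transcripts also differed between groups. The count of Nppa over that of Nppb averaged 0.963 ± 0.190 for Sham-Veh and 1.22 ± 0.163 for Sham-THZ1, near equal numbers of reads. It was 4.88 ± 1.68 in TAC-Veh, ranging from 3.47 to 7.14, and 2.51 ± 0.869 in TAC-THZ1, ranging from 1.71 to 3.31. No TAC-THZ1 library reached the TAC-Veh range, and none went down to a sham value.

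**Figure D3:**
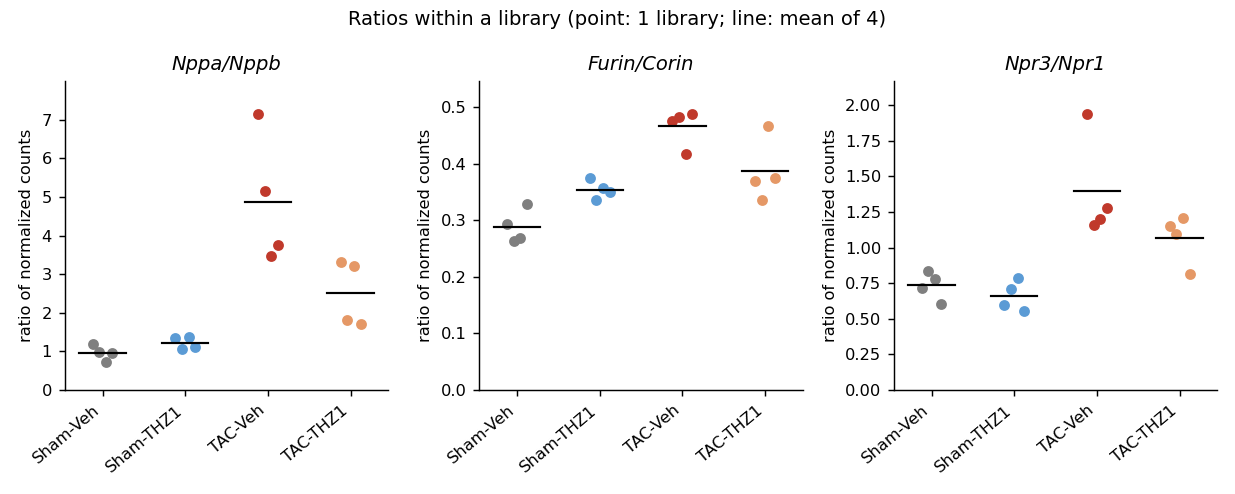
Ratios of normalized counts within a library (vertical axes, linear from 0) for Nppa to Nppb, Furin to Corin and Npr3 to Npr1 in the 4 groups; points are libraries and lines are means of 4. Nppa to Nppb runs from 3.47 to 7.14 in TAC-Veh and from 1.71 to 3.31 in TAC-THZ1, and TAC-Veh replicate 1 is the highest for Npr3 to Npr1, at 1.94.

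The third comparison asked whether THZ1 acted on these genes without constriction. By limma 0 of the 7 were called in Sham-THZ1 against Sham-Veh, as were 0.0675% of all genes, and DESeq2 and edgeR also called 0 of the 7. At an unadjusted p under 0.05 there were 2, Furin and Npr1, against 6.88% of all genes. Furin held 2115, 2116, 2062 and 2172 normalized counts in Sham-THZ1, a narrow band above every Sham-Veh library, and the difference was 0.32 (SE 0.08, adjusted p = 0.428). Nppb held 2668, 2314, 2403 and 2743, all below every Sham-Veh library, with a difference of -0.44 (SE 0.21, adjusted p = 0.728). These were the 2 genes of 7 without overlap, against 11.3% of all genes. In a fit of the sham groups alone, Furin and Nppb had adjusted p-values of 0.0190 and 0.0186, and array weights gave Furin 0.00771. Those 2 settings were the exceptions among 27 tried for Furin, and the adjusted p otherwise stayed above the threshold. The share of all genes called under those settings is not given here.

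Npr1 held 802, 771, 659.8 and 833 normalized counts in Sham-THZ1, with a difference of 0.22 (SE 0.09, adjusted p = 0.662). Nppa held 3583, 2434, 3306 and 3039, which lay across the Sham-Veh values, and its difference was -0.08 (95% interval -0.92 to 0.75, adjusted p = 0.993). Corin ranged from 5657 to 6298, Npr2 from 1531 to 1664 and Npr3 from 464 to 549 in Sham-THZ1, each overlapping Sham-Veh. Corin differed by 0.02 (adjusted p = 0.992), Npr2 by 0.11 (0.849) and Npr3 by 0.07 (0.973).

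The response to TAC under the drug was measured against Sham-THZ1 and shared no library with the response under vehicle. All 7 genes were called, 3 higher and 4 lower, against 24.2% of all genes tested (11.4% higher and 12.8% lower), and 6 of 7 did not overlap, against 33.4%. Nppa was higher by 3.01 (SE 0.40, adjusted p = 3.47e-04), or 8.07-fold, and Nppb by 2.03 (SE 0.21, adjusted p = 5.60e-05), or 4.07-fold. Corin was lower by -0.69 (SE 0.10, adjusted p = 6.38e-04) and Furin by -0.57 (SE 0.08, adjusted p = 6.86e-04). The receptor genes changed less: Npr2 by -0.31 (adjusted p = 0.00845), Npr1 by -0.28 (0.0266) and Npr3 by 0.40 (0.0416). The call of Npr1 was lost without Sham-THZ1 replicate 1 (0.0725), 2 (0.0589) or 4 (0.0876), or TAC-THZ1 replicate 3 (0.0745) or 4 (0.0570). That of Npr3 was lost in 10 of 27 alternatives: without the filter on low values (0.0530), without any one of the Sham-THZ1 libraries, and without TAC-THZ1 replicate 1, 2 or 3 or Sham-Veh replicate 1 or 3 (0.0508 to 0.121).

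Whether the TAC response itself differed between drug and vehicle was tested as an interaction. By limma 0 of the 7 genes passed, against 10.0% of all genes, and edgeR also called 0, while DESeq2 called 1, Nppa. At an unadjusted p under 0.05 there were 3, Nppa, Corin and Furin, against 27.1% of all genes. For Nppa the difference of the log2 TAC responses, THZ1 minus vehicle, was -1.75 (SE 0.56, 95% interval -2.93 to -0.57, adjusted p = 0.0561). It passed without TAC-Veh replicate 3 (adjusted p = 0.0231), TAC-Veh replicate 4 (0.0251) or TAC-THZ1 replicate 3 (0.0326), with array weights (0.0228) and with DESeq2 (0.0382). For Nppb the interaction was -0.43 (95% interval -1.05 to 0.18, adjusted p = 0.358), for Corin 0.31 (adjusted p = 0.176) and for Furin -0.27 (adjusted p = 0.163). Npr1 had -0.07 (adjusted p = 0.769), Npr2 -0.10 (0.606) and Npr3 -0.29 (0.356).

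The neighbourhood of the peptide genes was examined because both changed together. Protein-coding genes that start within 100 kb are described here. Mfn2, which encodes a mitochondrial fusion protein, starts at -96.0 kb from the start of Nppa. It fell with TAC (-0.57, adjusted p = 3.63e-05) and rose with THZ1 in TAC (0.30, adjusted p = 0.0110), the latter not when only the compared groups were fitted (0.107). Plod1, which encodes a collagen lysyl hydroxylase, starts at -64.0 kb, and rose with TAC (0.17, adjusted p = 0.0207) and fell with THZ1 in TAC (-0.34, adjusted p = 4.81e-04). Agtrap, an angiotensin receptor-associated protein gene 87.3 kb downstream, fell with TAC (-0.16, adjusted p = 0.0277), and its difference for THZ1 was 0.09 (adjusted p = 0.251). The TAC call of Plod1 was lost with only the compared groups fitted and without Sham-Veh replicate 2 or TAC-Veh replicate 4 (adjusted p up to 0.0723). That of Agtrap was lost in 7 of 27 alternatives, among them the omission of Sham-Veh replicate 2 or 4 or TAC-Veh replicate 1 or 2 (adjusted p up to 0.0979). Neither Clcn6 (0.01 with TAC and -0.02 with THZ1) nor 2510039O18Rik (-0.01 and 0.12) passed in either comparison. In absolute size none of these 5 flanking genes exceeded 0.57 for TAC, against 2.46 and 4.76 for Nppb and Nppa.

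**Figure D4:**
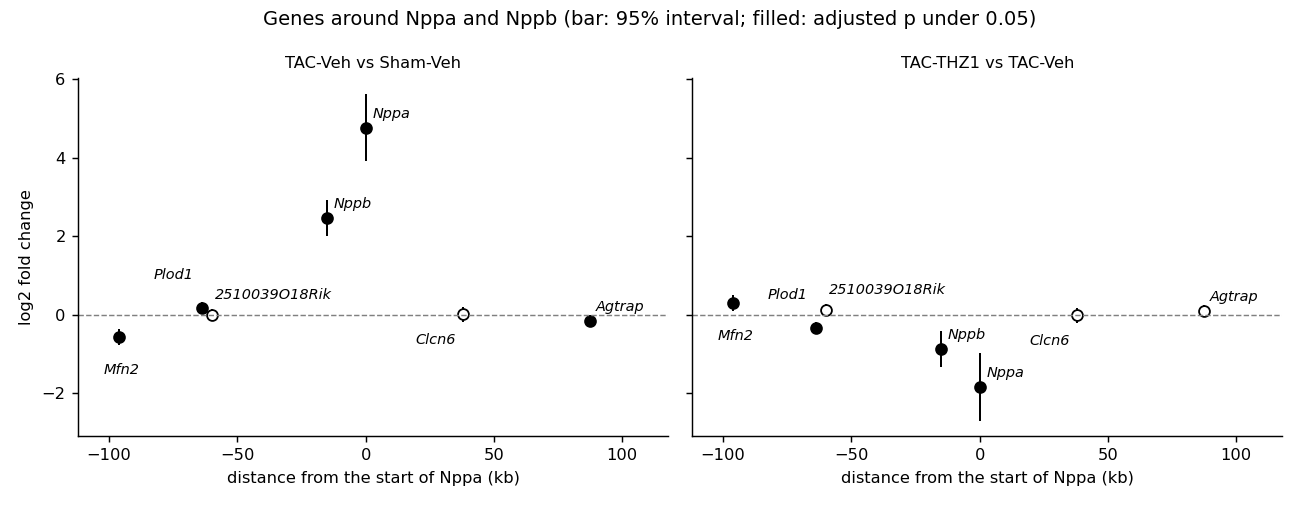
Log2 fold change (vertical axis) of Nppa, Nppb and the 5 flanking genes described, by distance of their start from that of Nppa in kb (horizontal axis), for TAC under vehicle and for THZ1 in TAC; bars are 95% intervals and filled points have an adjusted p under 0.05. Nppa and Nppb stand at 4.76 and 2.46, then at -1.83 and -0.87, while the flanking genes lie between -0.57 and 0.17 and between -0.34 and 0.30.

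Over all 16 libraries, Nppa and Nppb were each other's closest match among the 10317 genes that averaged 100 normalized counts or more (Pearson's r of log2 values 0.984). These coefficients describe 16 libraries that share 4 groups, so most of each comes from the differences between groups. Next to Nppa came Anxa4 (0.984), Dkk3 (0.982), Tnip1 (0.981) and Fxyd5 (0.980). Next to Nppb came Fam195b (0.978), Anxa4 (0.977), Hn1 (0.975) and Fibin (0.975). Among deviations from the group means, which leave that part out, the coefficient of Nppa with Nppb was 0.880. The order of the hearts within a group was not always the same for the 2 genes: Sham-Veh replicate 3 had the highest Nppb of its group and the second lowest Nppa. Genes whose deviations were most like those of Nppa were Sdcbp (0.948), Pfkp (0.940), Sema3f (0.940), Tpm3 (0.921) and Med10 (0.916). Those most like Nppb were Cdc42 (0.952), Rhoc (0.951), Crip1 (0.932), Anxa2 (0.928) and Myl6 (0.925).

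Corin ran opposite to the peptides, with coefficients of -0.958 to Nppa and -0.962 to Nppb, and was most like Slc20a2 (0.981), the desmosomal cadherin gene Dsg2 (0.981), Acadsb (0.979), Tmem106b (0.978) and Thrap3 (0.978). Furin was most like the ephrin gene Efnb1 (0.975), Wbp7 (0.963), the laminin gene Lama5 (0.962), Ap2a1 (0.959) and Gfod1 (0.959). For Npr1 these were Card10 (0.915), Card6 (0.915), Terf2 (0.897), Pou6f1 (0.892) and Mcc (0.892). For Npr2 they were Aqp7 (0.952), Myh14 (0.950), Dhdh (0.943), Foxo4 (0.925) and Agrn (0.920), and for Npr3 Cyp1b1 (0.908), Yeats4 (0.884), Sdf4 (0.881) and Sars (0.878). Over all libraries, Npr3 alone of the receptors ran with the peptides, at 0.848 with Nppa and 0.793 with Nppb. Among deviations from the group means, Npr3 had 0.302 with Nppa and -0.0149 with Nppb. Corin had -0.484 and -0.566 there, so these coefficients were closer to 0 than those over all libraries.

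Other peptides and proteases of the pathway were measured as a list of 6 genes. Nppc, which encodes C-type natriuretic peptide, and Ostn, which encodes a ligand of the clearance receptor, had no more than 3 reads in any library and were not tested. Of the 4 tested, 2 fell with TAC, with a median log2 fold change of the list of -0.42 against 0.00 for all genes, where 23.6% of all genes fell. Mme, which encodes neprilysin, the peptidase that degrades natriuretic peptides, held 193 ± 15.2 normalized counts in Sham-Veh and 62.1 ± 43.4 in TAC-Veh. It fell by 1.96 (SE 0.40, adjusted p = 8.68e-04) and rose by 1.43 with THZ1 in TAC (SE 0.40, adjusted p = 0.0131), at 136 ± 29.1. The latter call was lost when only the compared groups were fitted (0.0944). Ide, the gene of insulin-degrading enzyme, which also cuts these peptides, fell with TAC by 0.67 (adjusted p = 0.0133), with a difference of 0.04 for THZ1 in TAC.

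A further list held 15 genes of cGMP production, effectors and breakdown, not all of them specific to the natriuretic peptides. With TAC 2 rose and 5 fell, with a list median of -0.19, and 8 did not pass, where 21.4% of all genes rose and 23.6% fell. The phosphodiesterase genes Pde1a and Pde9a rose by 0.94 (adjusted p = 1.32e-05) and 0.80 (adjusted p = 1.87e-04). Pde3a, whose enzyme is inhibited by cGMP, fell by 1.00 (adjusted p = 1.58e-06), followed by Rgs2, a regulator of G-protein signalling that protein kinase G activates (-0.84), Mrvi1 (-0.81), Gucy1a3, a subunit of soluble guanylyl cyclase (-0.76), and Pde2a (-0.36). With THZ1 in TAC 2 rose and 4 fell, with a median of -0.11 against 0.01 for all genes, where 15.1% of all genes rose and 14.2% fell. Over the alternatives 0 to 3 rose and 2 to 5 fell. Pde9a fell by 0.88 (adjusted p = 3.11e-04), Pde1a by 0.67 (adjusted p = 7.76e-04), Prkg1, which encodes protein kinase G, by 0.58 (adjusted p = 0.0113) and Pde3b by 0.41 (adjusted p = 0.0437). Gucy1a3 rose by 0.45 (adjusted p = 0.0305) and Pde3a by 0.28 (adjusted p = 0.0455). The calls of Pde3a and Pde3b for THZ1 held in 10 of 27 alternatives each, that of Gucy1a3 in 22, and those of Pde1a and Pde9a in all 27. Pde1a held 173 ± 7.26 normalized counts in Sham-Veh, 336 ± 55.9 in TAC-Veh and 210 ± 34.2 in TAC-THZ1, and Pde9a 89.0 ± 6.83, 158 ± 35.1 and 84.5 ± 8.21. For both the interaction passed, at -0.85 (adjusted p = 0.00670) and -0.87 (adjusted p = 0.0121). For Prkg1 the interaction was 0.03 (adjusted p = 0.956), and its THZ1 difference in sham hearts was -0.61 (adjusted p = 0.397). Gucy1a3, Pde3a and Pde3b did not pass the interaction either.

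Transcription factors and a cofactor, Myocd, known to act at the Nppa and Nppb promoters were a list of 13. With TAC 0 rose and 9 fell by limma, where 21.4% of all genes rose and 23.6% fell, with a list median of -0.28 against 0.00 for all genes. Over the alternatives 7 to 11 fell and 0 rose. Tbx5, the T-box factor, fell by 1.19 (adjusted p = 2.66e-06), from 753 ± 80.8 to 332 ± 66.7 normalized counts, Mef2d by 0.75, Gata6 by 0.70 and Mef2a by 0.68. Those of Gata4 (-0.23, adjusted p = 0.0457) and Rest (-0.26, adjusted p = 0.0483), the latter a repressor of Nppa, were called in only 9 and 10 of 27 alternatives. With THZ1 in TAC 3 rose and 1 fell, where 15.1% of all genes rose and 14.2% fell, with a median of 0.15. Tbx5 rose by 0.62, Gata6 by 0.51 and Nkx2-5 by 0.35, and Tead1, whose protein binds the MCAT element, fell by 0.35. The interaction, which 10.0% of all genes passed, did so for Gata6 (0.48, adjusted p = 0.0480) and Nkx2-5 (0.35, adjusted p = 0.0394), in 12 and 15 of 26 alternatives. With TAC, then, the 9 factor mRNAs that passed all fell, while Nppa and Nppb rose.

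**Figure D5:**
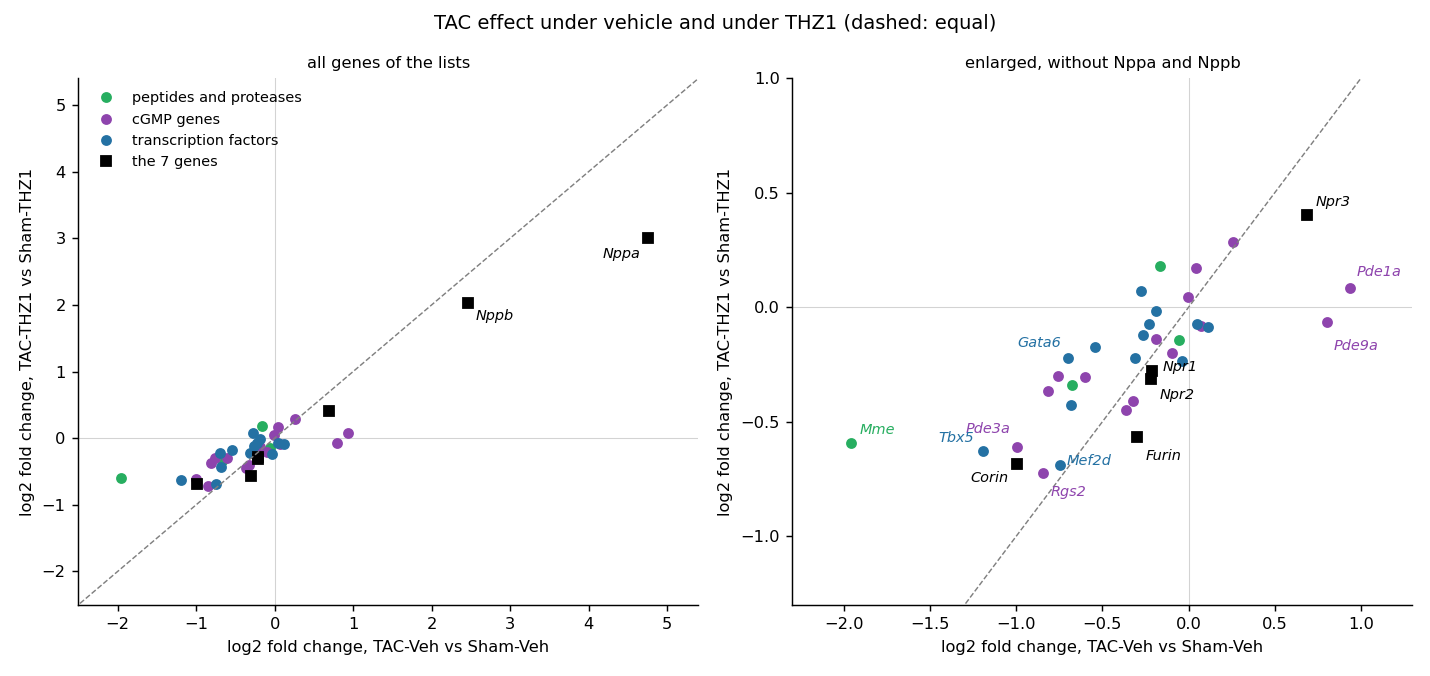
TAC response as log2 fold change under vehicle (horizontal axis) and under THZ1 (vertical axis, from other libraries) for the 7 genes (black squares) and the tested genes of the 3 lists (coloured points); the right panel enlarges the region without Nppa and Nppb, and the dashed line marks equal responses. Nppa and Nppb lie below the line at 4.76 and 3.01 and at 2.46 and 2.03; Pde1a and Pde9a are at 0.94 and 0.80 on the horizontal axis and near 0 on the vertical one.

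Signs of other cell types were set beside these changes. The list of 5 atrial markers summed to 86.2 to 105 normalized counts in Sham-Veh, 90.6 to 107 in Sham-THZ1, 532 to 1400 in TAC-Veh and 169 to 346 in TAC-THZ1. In the sham groups this was mostly Dkk3 and Myl4, at 60.2 ± 10.8 and 33.7 ± 4.64 in Sham-Veh, and in the TAC groups mostly Dkk3, at 843 ± 403 in TAC-Veh and 221 ± 78.8 in TAC-THZ1. Dkk3 rose by 3.68 with TAC (adjusted p = 2.06e-07) and fell by 1.87 with THZ1 in TAC (adjusted p = 3.11e-04), while Myl4 (0.43, adjusted p = 0.142) did not pass and Bmp10, Sln and Myl7 were at or near 0 in every group. The counts that follow stand against 21.4% of all genes higher and 23.6% lower with TAC, and 15.1% higher and 14.2% lower with THZ1 in TAC. Of the cardiomyocyte list, 4 of 8 fell with TAC and 6 of 8 rose with THZ1 in TAC. Myl2, Myl3, Tnnt2 and Actn2 did not pass with TAC. Of the fibroblast list, 3 of 5 rose with TAC and 3 of 5 fell with THZ1 in TAC, while Pdgfra and Tcf21 passed in neither. The endothelial list, in which the endocardium is known to hold Npr3, had 1 of 7 called higher and 2 lower after TAC, and 3 called lower (0 to 4 over the alternatives) for the drug in constricted hearts. Its summed level ran from 17305 to 19299 in Sham-Veh, 14430 to 19488 in TAC-Veh and 13559 to 14785 in TAC-THZ1. For smooth muscle, TAC raised 1 of 4 and lowered 1, and the drug in constricted hearts lowered 1. The part of these markers in the changes of the 7 genes was not tested.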

How the data were processed

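Total RNA of mouse ventricle was sequenced from 16 libraries as stranded mRNA. The authors aligned reads to mm9 with TopHat 2.1.1, counted them per GENCODE gene with htseq-count on the reverse strand, and divided the counts by DESeq2 size factors estimated over the libraries together. The deposited signal values are therefore normalized counts, and the labels state no sequencing batch. Dividing each library by its smallest step gave whole reads for 100% of values (within 0.01 read), with size factors of 0.749 to 1.40. No pair of replicates agreed within sampling noise (chi-square per degree of freedom 2.97 to 93.5), and replicates were taken as separate mice. The values were 2.97 to 7.51 in the sham groups, 10.2 to 55.8 in TAC-THZ1 and 50.6 to 93.5 in TAC-Veh.

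Because the deposited values were normalized, limma 3.58.1 (R 4.3.3) was run on log2(normalized count + 1) with 4 group means over all 16 libraries and a variance trend, for genes with at least 10 in at least 4 libraries (13331). P-values were adjusted by Benjamini and Hochberg within each of 5 contrasts, and genes with an adjusted p under 0.05 were called. Alternatives were a pseudocount of 8, other filters, scalings and weights, a fit of the compared groups, the study's fold thresholds, a replicate block, leaving out each library, and DESeq2 1.42.0 and edgeR 4.0.16 on the recovered reads. The main limma fit and those of edgeR and DESeq2 were tested on simulated data, without array weights or a replicate block. DESeq2 ran above its nominal rate of false calls there. Every simulated group had the same spread, so the simulation cannot show how unequal spread affects the calls. Intervals and test results measure the spread between libraries. In the main limma fit the 4 groups shared the spread of each gene, although TAC replicates lay further apart than sham replicates. Ratios and correlations are descriptions. Levels of different genes were ranked only per kb of exon, whereas the ratios are of normalized counts without correction for length.

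The 7 genes and the lists were chosen with earlier results of these data known. Also named were protein-coding genes that start within 100 kb of Nppa or Nppb, the 5 genes most like each of the 7 (for the peptides also by deviations from group means) among those with a mean of at least 100, and up to 4 called genes of each list with the largest changes. Not every gene selected by these rules is reported here. Other called genes of the lists were named after their values were seen, and marker lists are given mainly as counts and sums. Sequences are from RefSeq (GRCm38.p6); all 7 genes had a promoter entry, 8 in all, each matching 1 place in NCBIM37. Gene positions and exon lengths are from GENCODE on NCBIM37. Protein sequences and the other data types of the study were not used here. Figures were drawn with matplotlib 3.10.9.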

Additional observations from a re-analysis of the deposited data

Results flagged for a closer look

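In 44 groups of 4 libraries (the normalized counts of the 7 genes and 4 ratios between them), 2 held a library far from the other 3 by Dixon's 95% criterion, where chance alone gives about 1 in 20. Npr2 in TAC-THZ1 replicate 3 was 1083 normalized counts, against 1336 to 1379.97 in the other libraries of the group (gap over range 0.852). The ratio of Npr3 to Npr1 was 1.94 in TAC-Veh replicate 1, against 1.16 to 1.28 in the others (gap over range 0.844).

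Of 47 genes of the pathway, its regulators, the atrial markers and the neighbourhood that were examined for a difference of the TAC response between THZ1 and vehicle, 6 passed the interaction test in limma, where 10.0% of all genes passed, and none of the 7 natriuretic genes was among them. Lower under THZ1 were Dkk3 (-1.83, adjusted p = 0.0127), Pde9a (-0.87, adjusted p = 0.0121), Pde1a (-0.85, adjusted p = 0.00670) and Plod1 (-0.40, adjusted p = 0.00665). Higher under THZ1 were Gata6 (0.48, adjusted p = 0.0480) and Nkx2-5 (0.35, adjusted p = 0.0394).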

How the results depend on the processing

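Over 938 recomputed values of the 7 genes in the 5 contrasts, 889 kept their direction and their side of the threshold, 26 lost and 14 gained a call, and 9 changed sign, all of them near 0 and uncalled. Leaving out 1 library, Npr2 with THZ1 in TAC ran from -0.0253 to 0.0911, below 0 without TAC-Veh replicate 1 or 2 or TAC-THZ1 replicate 1, 2 or 4. In Sham-THZ1 against Sham-Veh, Nppa ran from -0.163 to 0.0799 and Corin from -0.0262 to 0.0670, both changing sign without Sham-Veh replicate 1 or Sham-THZ1 replicate 2. For TAC-Veh against Sham-Veh, Nppa, Nppb, Corin, Furin and Npr3 were called in all 27 alternatives.

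The number of genes called of 7 was 2 for TAC and 1 for THZ1 in TAC with fold thresholds of 1 and 0.89 on the log2 scale added, and 1 for THZ1 in TAC in a fit of the compared groups. These fold thresholds are the study's, and its methods set the second one so as to keep Nppb. In limma Nppb, at -0.87, fell just short of it, as did Corin with TAC, at -0.99, of the first. For THZ1 in sham it was 1 with array weights and 2 in a fit of the compared groups, and for the interaction 1 with array weights and with DESeq2. Leaving out 1 library gave 5 to 7 genes with TAC, 2 to 3 for THZ1 in TAC, 0 for THZ1 in sham, 5 to 7 for TAC under THZ1 and 0 to 1 for the interaction. Shares of all genes are given for the main limma fit only, so counts of calls under other settings have no background here. The cause of the changes in these counts was not tested.

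Replicate numbers did not pair libraries: 2 of 24 same-numbered pairs correlated above 0.1 (range -0.43 to 0.164), and 2 of 16 libraries correlated best with their own number. With the replicate block, Npr1 was called with TAC (adjusted p = 0.0281), and the interaction had 1 of 7 called, Nppa (-1.75, adjusted p = 0.0374). No scaling moved the median of all genes by over 0.1. Depth did not limit the 7 genes, whose values rest on at least 371 reads; it left Nppc and Ostn untested.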
